A study of Triticum aestivum with 12 samples.

Results

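The genes described here are 37 transcripts of bread wheat leaves whose level was higher under drought than under full irrigation by a similar amount with either of 2 foliar sprays, LRM or water. They were chosen from the measured values. CPM was the count scaled to a common library total. W was the log2 ratio of the mean CPM of drought to that of irrigated leaves with water spray, L was the same ratio with LRM spray, and 0.5 CPM was added to each mean. A member had a mean of at least 5 CPM over the 12 libraries, an irrigated library above 1 CPM, L and W of at least 0.7, L within 0.4 of W, and every water-sprayed drought library above every water-sprayed irrigated library. The count table held 99386 gene identifiers, of which 75198 had at least 1 count. The 18216 genes that met the conditions on mean and irrigated CPM are called genes on level.

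Leaves of wild-type Triticum aestivum, variety Chinese Spring L42 (WBCDB0017), were sampled in 4 groups of 3 libraries of polyA RNA. The drought_LRM and drought_water plants received 30 ml of water 2 times a week, and the irrigated_LRM and irrigated_water plants received 180 ml, the volume that the pots retained. LRM, a biostimulant made from microalgae, was applied to the foliage at 0.5%, first on the day after planting and then every 14 days, and the other plants were sprayed with water, per the labels. All plants shared a greenhouse with 16 h of light and 8 h of dark, 22 °C days and 20 °C nights. Plant age at sampling is not given in the sources used. Whether libraries of a group are separate plants is not in the labels, so the p-values cover only the variation among these samples, which may be technical.

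Leaves that run short of water close their stomata and accumulate abscisic acid, and transcription factors of this and parallel pathways raise genes for protective proteins, compatible solutes, transporters and detoxifying enzymes. Bread wheat is a hexaploid, so most of its genes have similar homoeologs in the A, B and D subgenomes. Which functions the 37 genes have is not known here. Their identifiers name a chromosome arm and carry no gene name, and 0 of the 99386 identifiers were found in the RefSeq gene list for assembly IWGSC CS RefSeq v2.1. For the same reason leaf marker genes and drought pathways could not be looked up, and no sequence is shown. Reads of a near-identical copy may enter the count of any gene named below, and each is uncertain in that respect. In whole leaves, a change in the share of a cell type and a change of RNA per cell cannot be told apart.

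Total counts ran from 17541561 in drought_LRM 2 to 47305447 in drought_water 3, and counts of replicates differed by more than sampling noise in every pair (chi-square of at least 4.17 per degree of freedom). A member had a median of 402 counts in a library, and apart from 2 cells at 0 the lowest was 74. Both cells at 0 stood far from their groups. Traes_7BL_B473BE1A5 had 0 counts in irrigated_water 1 and 30.4 to 87.1 CPM in the other 11 libraries. Traes_1AL_151BF9143 had 0 counts in drought_LRM 2 and 3.0 to 27.7 CPM elsewhere. Without that library its L was 1.88 and its W 0.99, so its place among the 37 rests on a cell at 0. Without irrigated_water 1, Traes_7BL_B473BE1A5 had L of 1.03 and W of 0.73 and stayed within the limits. Where these genes set a value below, it is also given without them.

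The 37 genes are the smaller share of the drought-raised genes. Among the 300 genes that met every condition apart from those on L, 254 had L above W by more than 0.4, 6 had L below W by more than 0.4, and 3 lay within 0.4 of W but had L under 0.7. Over the 37 members L ran from 0.72 to 1.53 with a median of 1.13, and W ran from 0.70 to 1.31 with a median of 0.89. L was above W in 32 of them and below it in 5, and both were at least 1 in 11. Without the 2 members that hold a library at 0, W reached at most 1.23, L was above W in 31 of 35 and below it in 4, and both were at least 1 in 10. With only its cell at 0 left out, Traes_7BL_B473BE1A5 had L above W by 0.30, against L - W of -0.28 with it. The member nearest the upper limit had L - W of 0.397, and the nearest gene outside had 0.408. In 9 members L - W was above 0.3, and 12 genes failed the limit alone with L - W of 0.4 to 0.5. The nearest genes failing only the floor on W, on L or on the mean had W of 0.68, L of 0.55 and 4.86 CPM, against lowest values of 0.70, 0.72 and 5.66 CPM among members. These values chose the members and are given as a description. The list itself depended on single libraries: the rule found 17 genes without drought_water 1, 103 without drought_water 3 and 116 without irrigated_water 1. Of these genes 17, 37 and 34 were among the 37, so without drought_water 3 or irrigated_water 1 the list mostly gained genes. Leaving out a water-sprayed library can only loosen the condition that the water-sprayed groups lie apart.

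**Figure D1:**
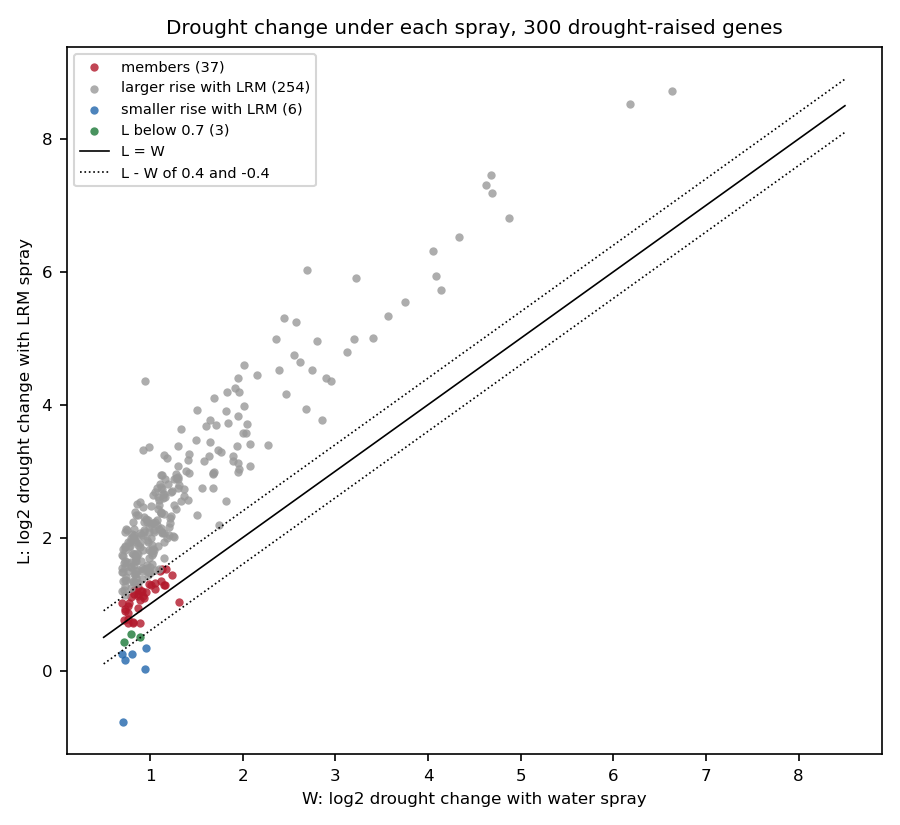
Each point is 1 of the 300 drought-raised genes, with W (log2 drought change with water spray) on the x axis and L (the same with LRM spray) on the y axis. The 37 members lie between the dotted lines at L - W of 0.4 and -0.4, below the 254 genes with a larger rise under LRM, and no member has W above 1.31, or above 1.23 without Traes_7BL_B473BE1A5, whose irrigated_water 1 is at 0.

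How far the changes were alike depended on the scaling. By library totals L - W had a median of 0.21 over the members, and on CPM scaled by TMM, a normalization that sets the bulk of genes level between libraries, it was 0.11 with 28 of the 37 above 0. Over all tested genes, totals in place of TMM moved the median interaction by 0.13 and the median drought change with LRM by 0.16 on the log2 scale. With TMM-scaled CPM the same rule found 40 genes, 28 of them among the 37.

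The interaction is the drought change with LRM minus that with water, and its 95% intervals say how closely the changes can be called alike. edgeR's quasi-likelihood test called 0 of the 37 members at a Benjamini-Hochberg adjusted p below 0.05, with 0 at an unadjusted p below 0.05, and DESeq2 called 0. By edgeR, 1.83% of the 18216 genes on level and 0.851% of the 57226 tested genes were called. The unadjusted p was below 0.05 in 21.2% of the genes on level. The rule limits L - W, so the count of 0 members supports nothing. The half-width of the interval had a median of 0.56 and ran from 0.33 to 2.5 on the log2 scale. In 33 members the interval lay within -1 to 1, and in 0 members it lay within the limit of 0.4 either way. Upper bounds passed 0.58, a ratio of 1.5, in 26 members, and lower bounds passed -0.58 in 10. Without the 2 members that hold a library at 0, the widest half-width was 0.81, the median 0.56, and these bounds were passed in 24 and 8 of 35, while 33 intervals lay within -1 to 1. The missing calls therefore do not show that the changes were equal.

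**Figure D2:**
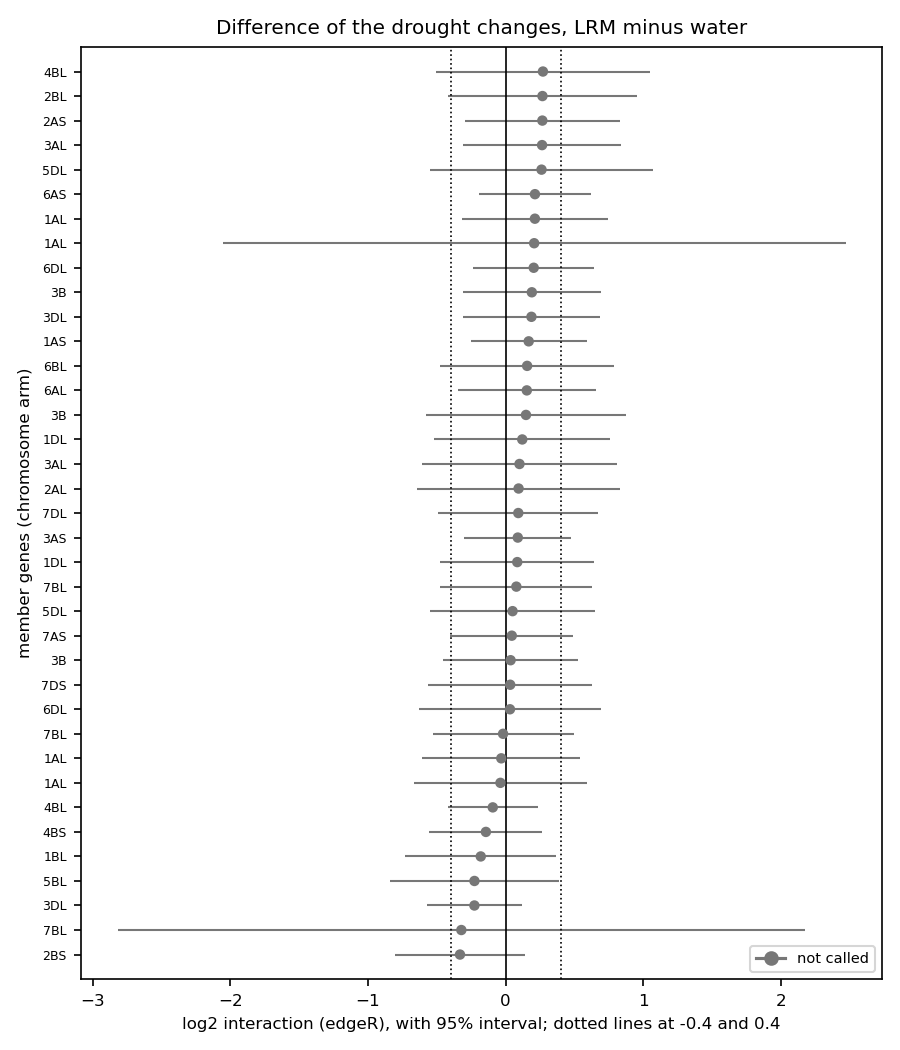
Each row is a member, labelled by chromosome arm, with its log2 interaction by edgeR (point) and 95% interval (line), and dotted lines mark -0.4 and 0.4. All 37 intervals contain 0, none lies wholly between the dotted lines, and the widest belong to the 2 members with a library at 0.

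The members known most precisely were Traes_4BL_524D3909F and Traes_3DL_DD407E97D. Traes_4BL_524D3909F had 45.8, 49.1 and 54.2 CPM in drought_LRM, 49.0, 50.1 and 37.1 CPM in drought_water, 27.3, 29.3 and 30.9 CPM in irrigated_LRM and 31.0, 27.3 and 23.6 CPM in irrigated_water. Every drought library lay above every irrigated library, and under each irrigation the sprays overlapped. Its log2 drought change was 0.61 (SE 0.11) with LRM and 0.70 (SE 0.11) with water, and the 95% interval of their difference ran from -0.42 to 0.23. Traes_3DL_DD407E97D had 17.1, 15.6 and 16.5 CPM in drought_LRM, 15.8, 16.6 and 12.2 CPM in drought_water, 10.6, 9.21 and 9.50 CPM in irrigated_LRM and 8.97, 7.33 and 8.40 CPM in irrigated_water. Its irrigated_LRM libraries all lay above irrigated_water, while the drought groups overlapped. The interval of its interaction ran from -0.57 to 0.12.

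The members with the highest mean of L and W were Traes_5DL_43046228D and Traes_3AL_FED51E346. Traes_5DL_43046228D had 28.0, 19.7 and 19.0 CPM in drought_LRM, 18, 12 and 8.10 CPM in drought_water, 9.74, 5.77 and 6.60 CPM in irrigated_LRM and 4.93, 4.84 and 6.34 CPM in irrigated_water. Its drought_LRM libraries stood above all others, whereas drought_water 3 lay below irrigated_LRM 1. L was 1.53 and W 1.17. Traes_3AL_FED51E346 had 16.3, 15.8 and 12.3 CPM in drought_LRM, 10.8, 10.1 and 6.57 CPM in drought_water, 4.86, 6.31 and 4.22 CPM in irrigated_LRM and 2.76, 3.52 and 4.58 CPM in irrigated_water. Here each drought library was above each irrigated one, and drought_LRM was above drought_water throughout. L was 1.44 and W 1.23.

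Per length, the most abundant members were Traes_2AS_0C3C91D16 and Traes_7BL_B473BE1A5. By the deposited FPKM, Traes_2AS_0C3C91D16 averaged 1354 ± 225 FPKM in drought_LRM, 777 ± 236 in drought_water, 582 ± 110 in irrigated_LRM and 438 ± 86.9 in irrigated_water (SD, n = 3 each). Its counts gave 457, 327 and 415 CPM in drought_LRM, 305, 214 and 168 CPM in drought_water, 208, 162 and 145 CPM in irrigated_LRM and 159, 114 and 114 CPM in irrigated_water. The drought groups did not overlap, and irrigated_LRM 3 fell within the range of irrigated_water. Traes_7BL_B473BE1A5 averaged 502 ± 34.9 FPKM in drought_LRM, 455 ± 68.4 in drought_water and 244 ± 48.0 in irrigated_LRM (SD, n = 3 each), and in irrigated_water it is listed at 0 in library 1 beside 40.9 and 46.8 CPM in libraries 2 and 3. The median member had a mean of 9.49 FPKM over the 12 libraries, and the lowest 2.08.

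**Figure D3:**
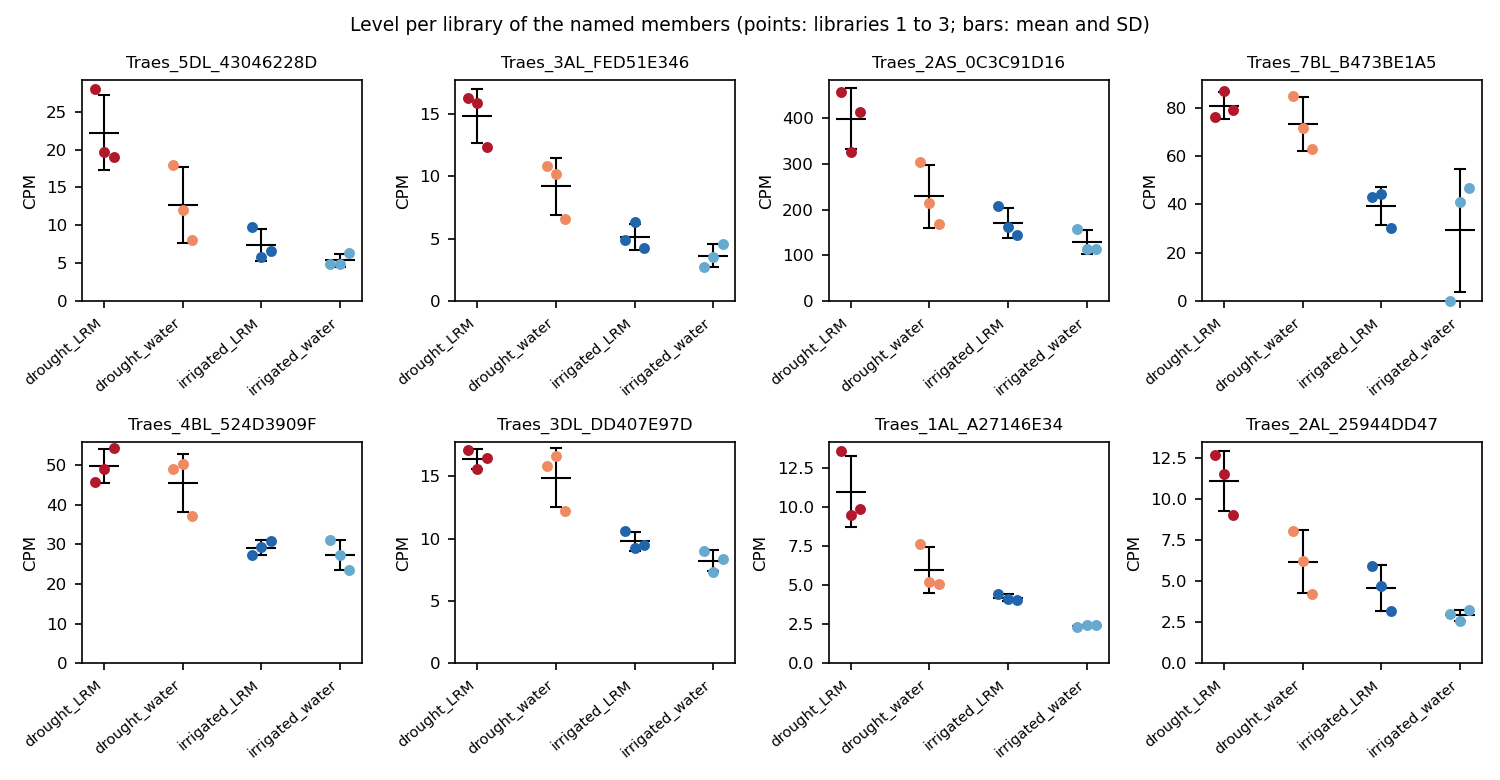
CPM per library (points) with the group mean and SD (bars, n = 3) for the 8 members named by rule, with the groups from left to right drought_LRM, drought_water, irrigated_LRM and irrigated_water. Both drought groups have higher means than both irrigated groups in each panel, and irrigated_water 1 of Traes_7BL_B473BE1A5 is the point at 0.

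Single libraries differed in the same way across most members. As a log2 ratio to the irrigated_water mean, the members' median was 1.58, 1.23 and 1.48 in drought_LRM 1, 2 and 3, then 1.2, 0.89 and 0.54 in drought_water 1, 2 and 3. It was 0.52, 0.33 and 0.16 in irrigated_LRM 1, 2 and 3 and 0.12, -0.12 and -0.01 in irrigated_water 1, 2 and 3. The median of drought_water 3 was thus close to that of irrigated_LRM 1. Library drought_water 3, the deepest of all, was the lowest of its group in 37 of 37 members, and in 56.3% of the genes on level. Library drought_water 1 was the highest of its group in 32 members, against 36.9% of the genes on level. Both patterns also held for the 254 genes with a larger rise under LRM, where drought_water 3 was lowest in 247 and drought_water 1 highest in 247, so they do not set the members apart. Library irrigated_water 1 was the highest of its group in 72.8% of the genes on level and in 21 of the 37 members. The biological coefficient of variation estimated by edgeR had a median of 15.7% over the members, 18.5% over those 254 genes and 11.5% over all genes on level.

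**Figure D4:**
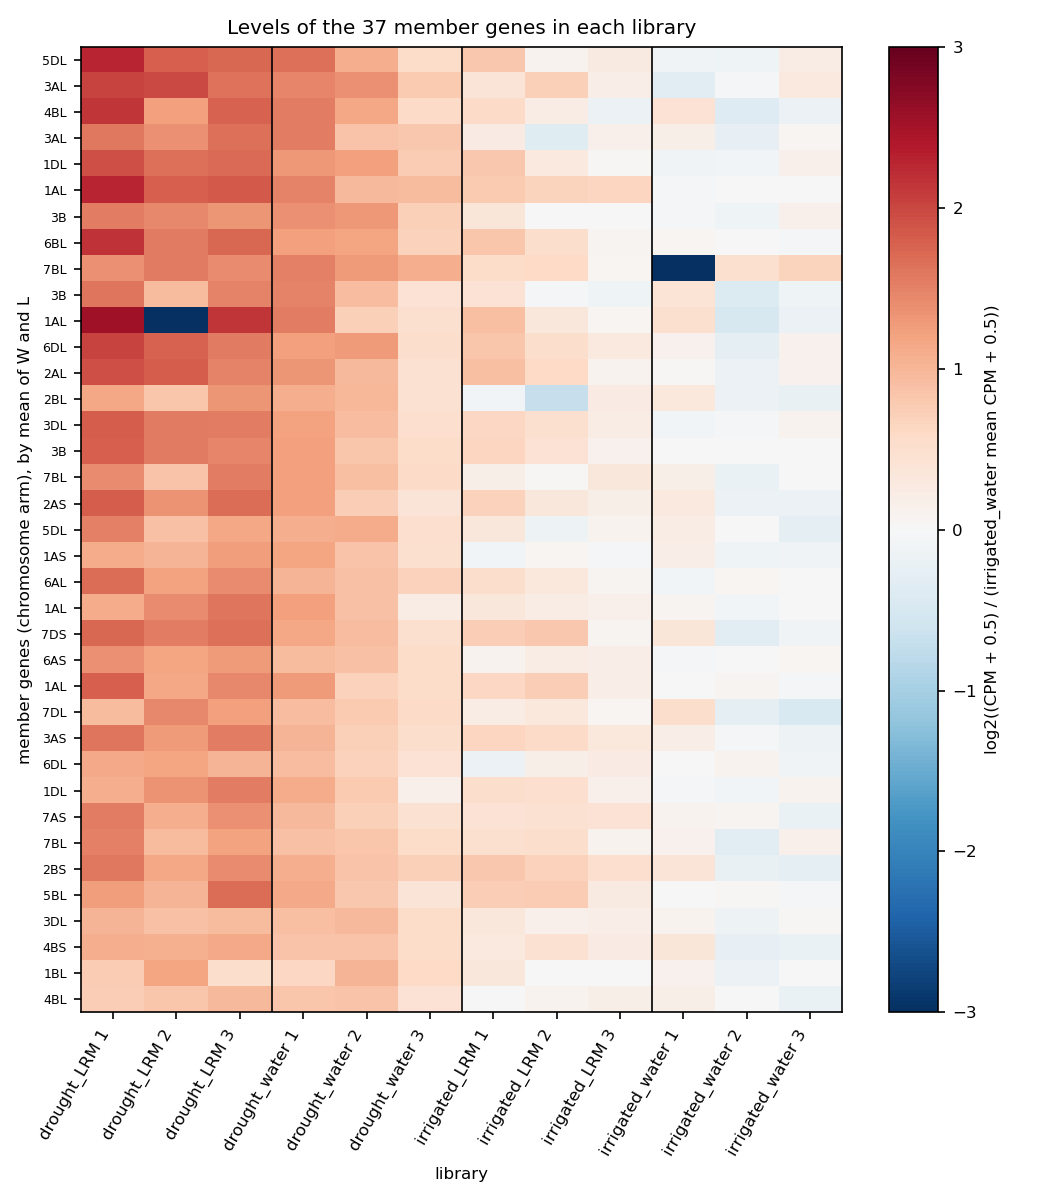
Rows are the 37 members, labelled by chromosome arm and ordered by the mean of L and W. Columns are the 12 libraries, and colour is the log2 ratio of CPM (plus 0.5) to the irrigated_water mean, clipped at 3 either way. Drought_LRM is darkest, drought_water 3 is paler than drought_water 1 and 2, most irrigated_LRM cells are pale red, and the 2 dark blue cells are listed at 0.

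The rule did not limit the difference of the sprays averaged over both irrigations. Apart from the 0.5 CPM added to each mean, an equal fold shift of both LRM groups leaves L and W as they are. Such a shift does move the mean CPM, on which the rule sets a floor. The counts are still not free of the selection, because the limit on L - W ties the 2 spray differences together. In the 254 genes with a larger rise under LRM, the spray difference under drought was positive in 254, with a median of 1.13. Under full irrigation it was positive in 121 of them. How far the choice of members sets the averaged difference was not tested. Members lay higher with LRM than with water: the log2 difference was positive in 37 of 37, with a median of 0.42 and a range of 0.03 to 0.79, beside a median of -0.01 over the genes on level. edgeR called 12 of the 37 members higher and 0 lower at an adjusted p below 0.05, and 24 had an unadjusted p below 0.05. The unadjusted p was below 0.05 in 34.7% of the genes on level, in either direction. Of the 18216 genes on level 4.53% were called higher and 4.87% lower, and of the 57226 tested genes 2.06% were called higher. The separation was not particular to the members, since 122 of the 254 genes with a larger rise under LRM were called higher too, with a median of 0.57.

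The number of calls rested on single libraries, while the size of the difference moved little. edgeR called 3 and 4 members without irrigated_water 2 or 3, 2 and 4 without irrigated_LRM 1 or 2, 4 without drought_LRM 1, and 4 and 3 without drought_water 2 or 3. DESeq2 called 20. The median log2 difference stayed between 0.35 and 0.51 in all 20 alternatives, and 33 of the 37 members kept a positive difference in each of them. Those 33 are all among the 35 members with no library at 0. The differences of Traes_7BL_B473BE1A5 and Traes_1AL_151BF9143, which hold a library at 0, ran from -0.17 to 1.89 and from -0.46 to 0.94.

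**Figure D5:**
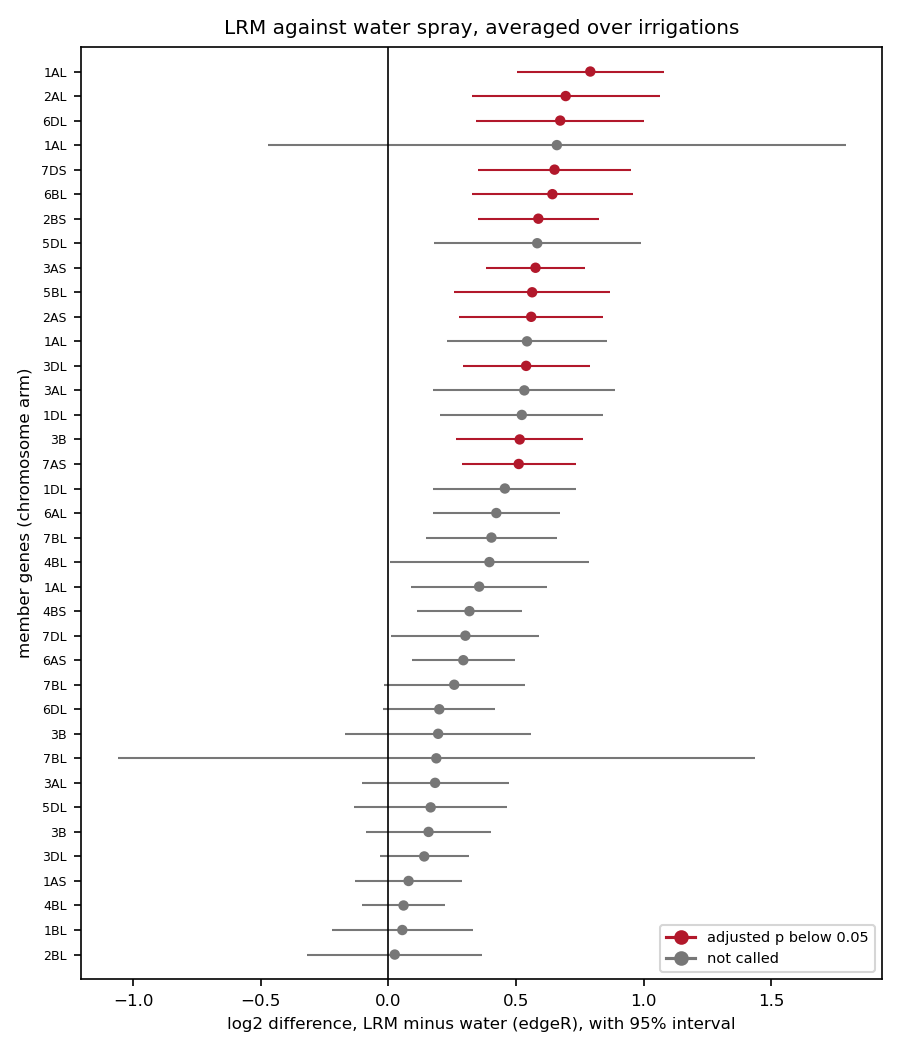
Each row is a member, labelled by chromosome arm, with the log2 difference of LRM minus water averaged over both irrigations (point) and its 95% interval (line), by edgeR. The 37 estimates run from 0.03 to 0.79, and the 12 members in red passed an adjusted p of 0.05.

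Traes_1AL_A27146E34 had the largest difference among the members called. It had 13.6, 9.46 and 9.87 CPM in drought_LRM, against 7.66, 5.17 and 5.07 CPM in drought_water, and 4.46, 4.11 and 4.03 CPM in irrigated_LRM, against 2.33, 2.42 and 2.44 CPM in irrigated_water. The 4 groups did not overlap at any step. The averaged log2 difference was 0.79 (SE 0.13, edgeR adjusted p = 0.0115), and it passed the threshold in 20 of 20 alternatives with an adjusted p of at most 0.0400. Traes_2AL_25944DD47 followed with 12.7, 11.6 and 9.07 CPM in drought_LRM, against 8.07, 6.24 and 4.23 CPM in drought_water, and 5.93, 4.68 and 3.17 CPM in irrigated_LRM, against 3.0, 2.56 and 3.23 CPM in irrigated_water. Its drought groups were apart and its irrigated groups overlapped. The averaged difference was 0.69 (SE 0.17, edgeR adjusted p = 0.0390), but only 9 of 20 alternatives called it, among them none that left out a library of irrigated_water, with adjusted p from 0.00560 to 0.172.

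Besides Traes_1AL_A27146E34, a single member was called in 20 of 20 alternatives. This was Traes_3AS_9474A8C67, named after its values were seen. It had 55.0, 43.8 and 52.4 CPM in drought_LRM, against 36.2, 29.1 and 25.7 CPM in drought_water, and 27.8, 26.4 and 21.9 CPM in irrigated_LRM, against 20.3, 16.9 and 15.8 CPM in irrigated_water. The sprays did not overlap under either irrigation. Its averaged log2 difference was 0.58 (SE 0.09, edgeR adjusted p = 0.00995). Traes_2AS_0C3C91D16, the most abundant member, differed by 0.56 (SE 0.13, edgeR adjusted p = 0.0327) and was called in 11 of 20 alternatives, with adjusted p from 0.00103 to 0.0970. No member had a negative averaged difference, so none is named in that direction. Without the 2 members that hold a library at 0, the count was 12 of 35 and the median 0.42.

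Split by irrigation, the differences between sprays had similar size. The median log2 difference was 0.46 under drought, positive in 36 members, and 0.41 under full irrigation, positive in 35. These single differences are tied to the rule, which limits how far apart they may lie, and they are given as values. Under drought edgeR called 8 members higher and 0 lower at an adjusted p below 0.05, beside 7.81% of the genes on level called higher and 9.05% lower. Over all tested genes 4.26% were called higher. The count was 0 without drought_water 3, 1 without drought_water 2 or without drought_LRM 1, 3 without irrigated_LRM 2, 5 without irrigated_water 2 and 14 without drought_water 1. Under full irrigation edgeR called 0 members, and 17 of the 37 reached an unadjusted p below 0.05, beside 12.7% of the genes on level. By DESeq2 the number of members called was 2, and by limma on log2(FPKM + 1) it was 0. Among the genes on level edgeR called 0% there.

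In CPM, the lowest drought_LRM library lay above the highest drought_water library in 20 of 37 members, beside 26.3% of the genes on level. The lowest irrigated_LRM library lay above the highest irrigated_water library in 15 members, beside 7.36%. Both held in 10 members, beside 2.5%. In members the limit on L - W ties the 2 spray steps together, and the genes on level carry no such limit. Group means followed the order irrigated_water, irrigated_LRM, drought_water and drought_LRM, from low to high, in 35 of 37 members, in 115 of the 254 genes with a larger rise under LRM and in 17.2% of the genes on level. The rule fixes drought_water above irrigated_water and drought_LRM above irrigated_LRM. It sets no condition on the step between irrigated_LRM and drought_water, nor on the spray steps beyond the limit on their difference. With W of at least 0.7, though, a small spray difference under irrigation leaves irrigated_LRM below drought_water. The 35 members in this order are also the 35 whose irrigated_LRM mean was above irrigated_water, so the order restates that count. The genes on level, at 49.4% for that step, carry no condition on W or L. In 20 members the drought_water libraries lay wholly above irrigated_LRM, beside 12.8% of the genes on level, and in 17 the groups overlapped. The drought_water libraries lay wholly above irrigated_water in all 37 by the rule, beside 10.3%.

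For the genes with a larger rise under LRM, the library medians showed where they differ. They stood at 2.40, 2.36 and 2.31 in drought_LRM 1, 2 and 3, at 1.51, 1.09 and 0.55 in drought_water 1, 2 and 3, and at 0.01, -0.06 and -0.01 in irrigated_LRM 1, 2 and 3, all as log2 ratios to the irrigated_water mean. The members' irrigated_LRM medians of 0.52, 0.33 and 0.16 were above these, and their drought_LRM medians were below. In the edgeR fit the median difference between sprays under full irrigation was 0.41 over members and -0.02 over the 254 genes. The limit on L - W divides these sets by the same quantities, so the contrast is a description without a test.

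The drought contrasts themselves were used by the rule. edgeR called 35 of the 37 members higher under drought with LRM, beside 13.7% of the genes on level and 8.65% of all tested genes called higher. It called 20 of 37 with water, beside 1.51% and 0.744%. The count with water was 9, 4 and 6 without irrigated_water 1, 2 or 3, 5, 8 and 33 without drought_water 1, 2 or 3, and 35 by DESeq2. The 2 members not called with LRM were those with a library at 0, which also had the widest interaction intervals.

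The members were spread over the genome. They lay on 17 chromosomes, with 13 in subgenome A (35.1%), 14 in B (37.8%) and 10 in D (27.0%), and the genes on level divided as 32.3%, 35.3% and 32.4%. Long arms held 26, short arms 8, and 3 lay on 3B, whose identifiers give no arm. How the genes on level divide between arms is not reported here, so the arm counts have no comparison. Homoeologous groups 1 and 3 held 8 members each (21.6%), beside 13.2% and 14.1% of the genes on level. Chromosome 1A held 5 (13.5%), beside 4.64%. Chromosomes 2D, 4A, 4D and 5A held 0, beside 5.09%, 5.18%, 4.85% and 4.12% of the genes on level. With 37 genes these shares are counts, and no test of them was made.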

How the data were processed

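PolyA RNA of 12 leaf libraries was sequenced, per the labels. The authors deposited whole-number read counts per gene and a second table judged from its values to be FPKM. Per the submitters' processing notes the tools were HISAT2, StringTie, DESeq2 and FastQC, with no version stated. The genome build, annotation and strand setting are not given. For the members, all 442 FPKM cells with a count lay within 5% of the value implied by count, total and a constant length. Over all genes, 173 FPKM cells, in 171 genes and 0 members, were 1000 times that value within 5%, among 555204 cells with more than 20 counts. The limma fits used the FPKM as deposited, these cells included.

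Counts were tested with edgeR 4.0.16 (R 4.3.3): TMM, filterByExpr (57226 genes), a single fit of 4 group means, quasi-likelihood tests and Benjamini-Hochberg adjustment over all tested genes. A gene was called below 0.05. SE and 95% intervals are Wald values from the fitted weights and the posterior dispersion. CPM uses library totals. DESeq2 1.42.0 and limma 3.58.1 served as alternatives. The 3 libraries left out together (irrigated_water 1, irrigated_LRM 1, drought_LRM 2) were chosen from an earlier analysis of these data, where a set of co-varying genes was highest of its group in each. The fit was also run on simulated counts, with outcomes not reported here. These counts were drawn independently for each gene and library. The simulation therefore held no deviation of a library shared across genes, as seen in drought_water 3.

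The members, lists and tests were chosen with earlier results of these data known. Named were the 2 members each with the highest mean of L and W, the highest FPKM, the narrowest interaction interval and the largest averaged spray difference among those called. Other named genes were chosen after their values were seen.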

Additional observations from a re-analysis of the deposited data

How the results depend on the processing

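The direction of the averaged spray difference was kept in all 20 alternatives as a median, and 4 members changed sign in at least 1 of them. Both members with a library at 0 were among these 4. The call counts were less stable. Members called for LRM against water averaged over irrigations ranged from 2 to 16 as single libraries were left out, and numbered 5 without irrigated_water 1, irrigated_LRM 1 and drought_LRM 2 together, 20 by DESeq2 and 3 by limma on log2(FPKM + 1) without a filter. Under drought the count ranged from 0 to 14 without single libraries and was 13 and 5 by limma with and without its filter. Under full irrigation DESeq2 called 2. For drought with water the count ranged from 4 to 33 without single libraries and was 3 without those 3 libraries, 35 by DESeq2, and 10 and 3 by limma with and without its filter. The rule itself found 17 to 116 genes without single libraries: 17 without drought_water 1, 103 without drought_water 3 and 116 without irrigated_water 1, of which 17, 37 and 34 were among the 37. It found 97 genes without the 3 libraries (25 of the 37), 16 with a limit of 0.2, 61 with 0.6 and 11 with a floor of 1. The cause was not tested. Whether the numbering pairs libraries was not settled. Deviations of same-numbered libraries correlated from -0.34 to 0.44, above 0.1 in 7 of 18 pairs. Of the 12 libraries, 4 correlated best with their own number. With a replicate block edgeR called 13 members for the averaged difference, 11 under drought and 25 for drought with water. Outside the cells at 0, members have at least 74 counts per library, and with 3 libraries a group the spread between libraries enters every test.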

Other observations

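A library at 0 beside group partners of at least 5 CPM was found in 3 of the 18216 genes on level, and 2 of these 3 are members. For both members the deposited FPKM is 0 in the same library.

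Traes_3B_D73A6437C1 and Traes_3DL_F309133641, both members and named after their values were seen, ran in parallel. The first had 133, 114 and 105 CPM in drought_LRM, 89.4, 68.5 and 55.8 CPM in drought_water, 59.5, 51.4 and 41.7 CPM in irrigated_LRM and 38.0, 37.7 and 38.2 CPM in irrigated_water. The second had 171, 144 and 142 CPM in drought_LRM, 112, 92.9 and 68.4 CPM in drought_water, 74.6, 67 and 56.6 CPM in irrigated_LRM and 45.5, 47.1 and 52.2 CPM in irrigated_water. The log2 ratio of their counts departed from its median by at most 0.10 in any of the 12 libraries, the smallest departure among all pairs of members. Their averaged spray differences were 0.51 (SE 0.12, edgeR adjusted p = 0.0282) and 0.54 (SE 0.12, edgeR adjusted p = 0.0238). They lie on chromosomes 3B and 3D, and whether they are copies of a single gene or share reads was not tested.

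No identifier outside a member had all 12 counts within 10% of it, and 2 members had such a neighbour within 20%. Counts of Traes_6DL_63F419296 and Traes_6DL_20C5D4359 differed by a ratio of at most 1.154. Those of Traes_3DL_DD407E97D, a member with one of the narrowest intervals, and Traes_2BL_7141904F2, on another homoeologous group, differed by at most 1.186. Traes_2BL_7141904F2 is not a member: its W was 0.79 and its L 0.55, below the floor of 0.7. Traes_3DL_DD407E97D had L of 0.72. Whether either pair shares reads was not tested.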
